A study of Mus musculus with 35 samples.

Results

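The 37 genes of the mouse mitochondrial genome were measured in leukemia cells as RNA and as ribosome footprints. They were chosen as all genes listed in both count tables whose symbol begins with mt-, and made up 37 of 55487 genes: 13 encode proteins, 2 encode ribosomal RNAs (rRNAs) and 22 encode transfer RNAs (tRNAs). The cells were acute myeloid leukemia cells that carry the MLL-AF9 fusion and GFP, and came from a culture expanded from a terminally ill mouse. They carried either sgScramble, a guide against no gene, or sgOgfod1, a guide against Ogfod1, which hydroxylates a protein of the cytosolic ribosome. Recipient males, 8 to 10 weeks old, received these cells, and GFP+ cells were sorted from their marrow to separate them from the host's own cells.

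Vehicle mice ate a standard amino acid diet and were injected with PBS. Treated mice ate a diet free of branched-chain amino acids (BCAA; leucine, isoleucine and valine) and received 5+3 chemotherapy, which is daily cytarabine (100 mg/kg, 5 days) joined at its start by doxorubicin (3 mg/kg, 3 days). Diet and drugs always came together, so their effects cannot be told apart. RNA was measured in 5 vehicle mice of each genotype, 7 treated mice with sgScramble and 6 treated mice with sgOgfod1 cells. Footprints were measured in 3 of the vehicle mice of each genotype and in 4 and 2 of the treated mice. Totals ran from 31.9 to 142.7 M (mega) counts in RNA and from 5.71 to 14.6 M in footprints. Ogfod1 RNA was 22.7 ± 1.92 CPM (counts per M of the scaled library; mean ± SD) in vehicle sgScramble mice against 10.8 ± 1.34 in vehicle sgOgfod1 mice, and 21.8 ± 6.22 against 9.20 ± 3.03 in treated mice. Ogfod1 footprints were 14.6 ± 0.872 against 2.42 ± 0.676 CPM in vehicle mice and 15.0 ± 2.16 against 2.18 ± 1.04 in treated mice.

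The mitochondrial genome is a small circle of DNA that is kept in many copies per cell. Both strands are transcribed into long precursors, and the tRNAs that lie between the other genes mark where these are cut. The mRNAs are translated inside the organelle, on ribosomes built around mt-Rnr1 and mt-Rnr2. All its proteins are membrane subunits of the respiratory chain or of ATP synthase. The Nd proteins belong to complex I, which takes electrons from NADH. mt-Cytb is the cytochrome b of complex III, the Co proteins form the core of complex IV (cytochrome c oxidase), and mt-Atp6 and mt-Atp8 belong to complex V (ATP synthase). Tumor cells need the chain for ATP and for aspartate synthesis.

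Nuclear DNA holds old insertions of mitochondrial sequence, and a read from a stretch that both share matches both places. The next sequences show how close 3 of the copies are, with capitals on bases that differ within a pair. All are read 5′ to 3′ from GENCODE M21 transcripts of build GRCm38.
mt-Nd3, chrM:9459-9518, plus strand: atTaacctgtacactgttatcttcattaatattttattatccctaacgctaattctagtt
Gm28438, chr1:24613060-24613119, minus strand: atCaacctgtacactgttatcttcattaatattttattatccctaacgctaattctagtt
mt-Nd4l, chrM:9994-10053, plus strand: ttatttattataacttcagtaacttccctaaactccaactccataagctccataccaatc
Gm10222, chr1:24612524-24612583, minus strand: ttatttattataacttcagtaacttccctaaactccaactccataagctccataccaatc
mt-Cytb, chrM:14687-14746, plus strand: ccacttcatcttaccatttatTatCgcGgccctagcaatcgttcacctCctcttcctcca
Gm11410, chr4:80004531-80004590, plus strand: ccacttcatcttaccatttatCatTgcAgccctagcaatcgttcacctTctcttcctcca

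The mt-Nd3 pair differs by T3C, the only mismatch over 345 aligned bases, with positions counted from 1 at the first base of the gene. The mt-Nd4l pair has 0 mismatches over 294 bases. The mt-Cytb pair shown differs by T564C, C567T, G570A and C591T, and has 81 mismatches over 1142 bases. On chromosome 1 the insertion also holds Gm28437, identical to mt-Co3 over 783 bases, Gm10925, identical to mt-Atp6 over 678 bases, and Gm28661, identical to mt-Co2 over 681 bases. Of all windows of 30 bases, nuclear transcripts shared 100% in mt-Co2, 99.9% in mt-Co3, 99.5% in mt-Atp6, 98.9% in mt-Nd4l and 98.1% in mt-Nd3. They shared 64.8% in mt-Co1, 62.8% in mt-Nd4, 17.5% in mt-Nd5, 14.1% in mt-Nd2, 8.37% in mt-Nd6, 7.35% in mt-Cytb and 0% in mt-Nd1. mt-Atp8 shared 8.0%.

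The RNA counts fell into 2 sets. In RNA the 6 genes from mt-Co2 to mt-Nd4l had 0 to 443 counts in a library, whereas the other 7 protein genes had 2050 to 396638. The 5 genes that shared at least 98.1% of their windows were all in the low set, but so was mt-Atp8, which shared 8.0%, and mt-Co1 and mt-Nd4, which shared 64.8% and 62.8%, were in the high set. These shares cover annotated nuclear transcripts alone. Gm10925 ends at chr1:24614651 and Gm28661 starts at chr1:24614885. Unannotated sequence between them was not compared, so the 8.0% of mt-Atp8 may miss nuclear sequence there. Why the 6 genes were low was not tested. In footprints the 6 genes were not low: per kb of gene they averaged 100 to 681 CPM against 55.3 to 337 for the other 7. The footprint count of Gm10222 equalled that of mt-Nd4l in 12 of 12 libraries, with 4132 counts each in total. Gm28661 had 21062 footprint counts against 21056 for mt-Co2, and Gm28437 had 24124 against 24134 for mt-Co3. How reads with several matches were treated is not given in the sources used here. The RNA counts of these 6 genes are not read here as a measure of their transcripts, and their footprint counts may include reads of the nuclear copy. Statements on RNA below rest on the other 7, called countable: mt-Nd1, mt-Nd2, mt-Co1, mt-Nd4, mt-Nd5, mt-Nd6 and mt-Cytb. In footprints Gm13340 had 28006 counts against 56272 for mt-Co1, and Gm28439 had 6435 against 11512 for mt-Nd4. In RNA these copies had 4639 against 3417168, and 113 against 378794. Copies of mt-Nd2, mt-Nd5, mt-Nd6 and mt-Cytb had 0.10 to 0.20 times the footprint counts of their gene. Footprint counts of mt-Co1 and mt-Nd4 may thus also include reads of the nuclear copy.

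**Figure D1:**
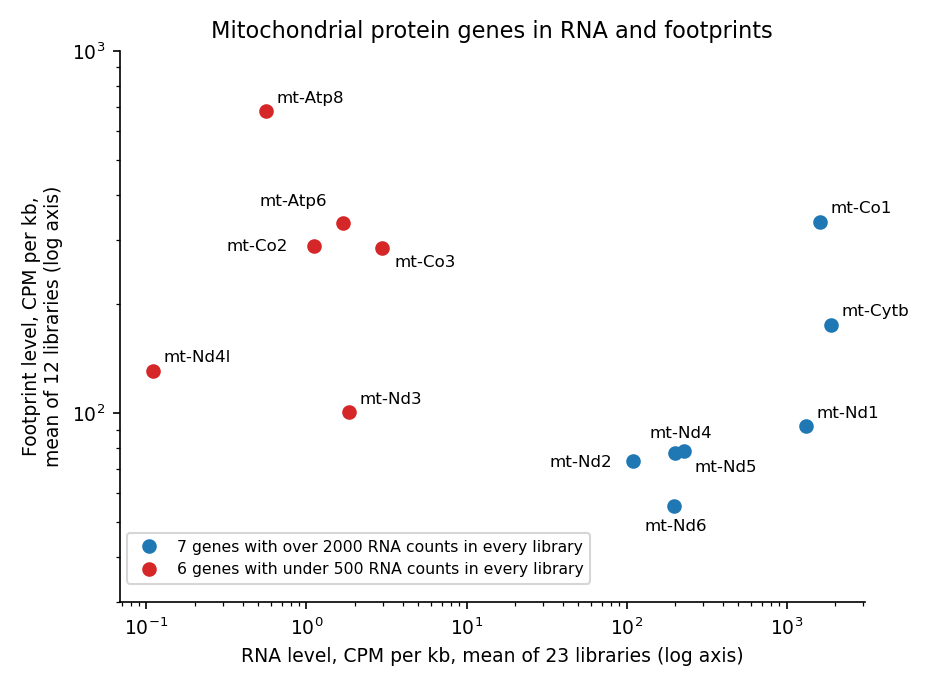
Mean level of each mitochondrial protein gene in CPM per kb, RNA (horizontal, 23 libraries) against footprints (vertical, 12 libraries), both on log axes. The 6 genes in red lie between 0.111 and 2.98 CPM per kb in RNA and the 7 in blue between 110 and 1892, while the footprint levels of the 2 sets overlap.

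Per length, RNA levels formed 2 blocks. mt-Cytb (1892 CPM per kb over 23 libraries), mt-Co1 (1628) and mt-Nd1 (1321) were high, and mt-Nd5 (227), mt-Nd4 (200.0), mt-Nd6 (197) and mt-Nd2 (110) were low. The lowest library of mt-Nd1, at 519 CPM per kb, lay above the highest of mt-Nd5, at 365. Neighbours within a block overlapped. These levels divide by the whole gene length, although mt-Co1 and mt-Nd4 shared 64.8% and 62.8% of their windows with nuclear transcripts. Levels over the unshared part alone were not computed. In footprints mt-Atp8 led with 681 CPM per kb, ahead of mt-Co1 (337) and mt-Atp6 (336), and mt-Nd6 was lowest with 55.3. mt-Atp8 overlaps mt-Atp6, and the reads of the shared stretch cannot be assigned to either by sequence. How they were counted is not given in the sources used here, so the level of mt-Atp8 may include reads of mt-Atp6. The stretch is shown here, at chrM:7927-7969 on the plus strand, with the first codon of mt-Atp6 and the stop codon of mt-Atp8 in capitals.
mt-Atp8 and mt-Atp6: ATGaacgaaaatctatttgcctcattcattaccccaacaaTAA

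Leucine, isoleucine and valine make up 29.71% of the 3790 codons of the 13 proteins, reckoned with the mitochondrial code and the first codon as methionine. By gene the share runs from 25.4% in mt-Atp8 to 34.9% in mt-Nd6, with a median of 30.2%. The tRNAs that read these codons are made by the organelle itself. They are printed with the anticodon in capitals, because the diet of the treated mice lacked their amino acids. mt-Tl1 and mt-Tl2 carry leucine, mt-Ti isoleucine and mt-Tv valine.
mt-Tl1, chrM:2676-2750, plus strand: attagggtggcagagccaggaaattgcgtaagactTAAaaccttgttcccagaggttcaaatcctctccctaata
mt-Tl2, chrM:11671-11741, plus strand: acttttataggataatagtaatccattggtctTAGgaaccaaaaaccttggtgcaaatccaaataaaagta
mt-Ti, chrM:3706-3774, plus strand: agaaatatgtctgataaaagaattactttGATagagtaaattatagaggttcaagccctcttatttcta
mt-Tv, chrM:1025-1093, plus strand: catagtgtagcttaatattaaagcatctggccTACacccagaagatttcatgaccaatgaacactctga

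The first comparison asked what BCAA-free diet with chemotherapy did to mitochondrial RNA in sgScramble cells. mt-Nd5, a proton-pumping subunit of complex I at chrM:11742-13565 on the plus strand, fell, and mt-Nd1, at chrM:2751-3707 on the same strand, did not pass the test. mt-Nd5 stood at 467, 651, 547, 515 and 666 CPM in vehicle mice and at 131, 343 and 457 CPM (lowest, median, highest of 7) in treated mice. All 7 treated mice lay below all 5 vehicle mice. The log2 fold change was -0.78 ± 0.21 (SE), with an adjusted p of 0.016 from edgeR's quasi-likelihood test over all genes.

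The other complex I genes did not pass in sgScramble cells. mt-Nd4 had a log2 fold change of -0.47 ± 0.19 (adjusted p = 0.11), mt-Nd6 of -0.48 ± 0.22 (0.16) and mt-Nd2 of -0.39 ± 0.20 (0.22). mt-Nd1 averaged 1168 ± 217 CPM in vehicle and 1201 ± 335 in treated mice, a log2 fold change of 0.04 ± 0.19 (adjusted p = 0.93). In complex IV, mt-Co1 averaged 3191 ± 576 CPM in vehicle and 2127 ± 757 in treated mice, with overlapping groups and an adjusted p of 0.066. In complex III, mt-Cytb averaged 2509 ± 309 and 1886 ± 676 CPM (log2 fold change -0.41 ± 0.19, adjusted p = 0.16).

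Of the 13 protein genes, 11 passed the filter on low counts (mt-Atp8 and mt-Nd4l did not), and 1 of the 11 was called lower and 0 higher. Over all 21474 genes, 4.34% were called lower and 12.9% in either direction. The log2 fold change was negative for 10 of the 11, with a median of -0.47 beside -0.0059 over all genes. The 11 include 4 genes with near-empty RNA counts, and over the 7 countable genes the median was also -0.47. The count of 1 rested on a few mice: it was 0 without vehicle sgScramble replicate 5 (mt-Nd5 adjusted p = 0.0501), 2 without vehicle sgScramble replicate 1 or treated sgScramble replicate 7, and 4 without treated sgScramble replicate 6. Over the mice that also had a footprint library it was 6.

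In sgOgfod1 cells 3 complex I genes fell with treatment: mt-Nd5, mt-Nd6 and mt-Nd4. mt-Nd5 stood at 557, 556, 429.6, 602 and 647 CPM in vehicle mice and at 192, 249.6 and 350.1 CPM (lowest, median, highest of 6) in treated mice. The log2 fold change was -1.09 ± 0.22 (adjusted p = 0.0029), the largest fall among the 7 genes. mt-Nd6, at chrM:13552-14070 and alone among the protein genes on the minus strand, averaged 131 ± 18.0 CPM in vehicle and 72.0 ± 12.4 in treated mice (-0.86 ± 0.23, adjusted p = 0.017). mt-Nd4, at chrM:10167-11544, averaged 333 ± 30.6 and 213 ± 31.6 CPM (-0.65 ± 0.20, adjusted p = 0.039). For each of the 3 genes all 6 treated mice lay below all 5 vehicle mice. The share of all genes with such a separation is not given, and these genes were picked by their call. The RNA libraries keep no strand, so counts of mt-Nd6 may include RNA of the opposite strand.

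mt-Nd1 again did not pass the test, with 1335 ± 213 CPM in vehicle and 1358 ± 222 in treated sgOgfod1 mice (log2 fold change 0.02 ± 0.20, 95% interval -0.40 to 0.45). mt-Co1 averaged 2649 ± 391 and 2296 ± 454 CPM (adjusted p = 0.59), and mt-Cytb 2486 ± 272 and 1934 ± 197 (adjusted p = 0.25). Among the 11 tested protein genes 3 were called lower and 0 higher, where 4.18% of all genes were called lower and 9.87% in either direction. The median log2 fold change was -0.65 over the 11, and -0.37 over the 7 countable genes, beside -0.0022 over all genes. Leaving out 1 mouse at a time gave 2 to 4 calls, and mt-Nd5 and mt-Nd6 were called in all 32 alternatives and mt-Nd4 in 22 of 32.

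**Figure D2:**
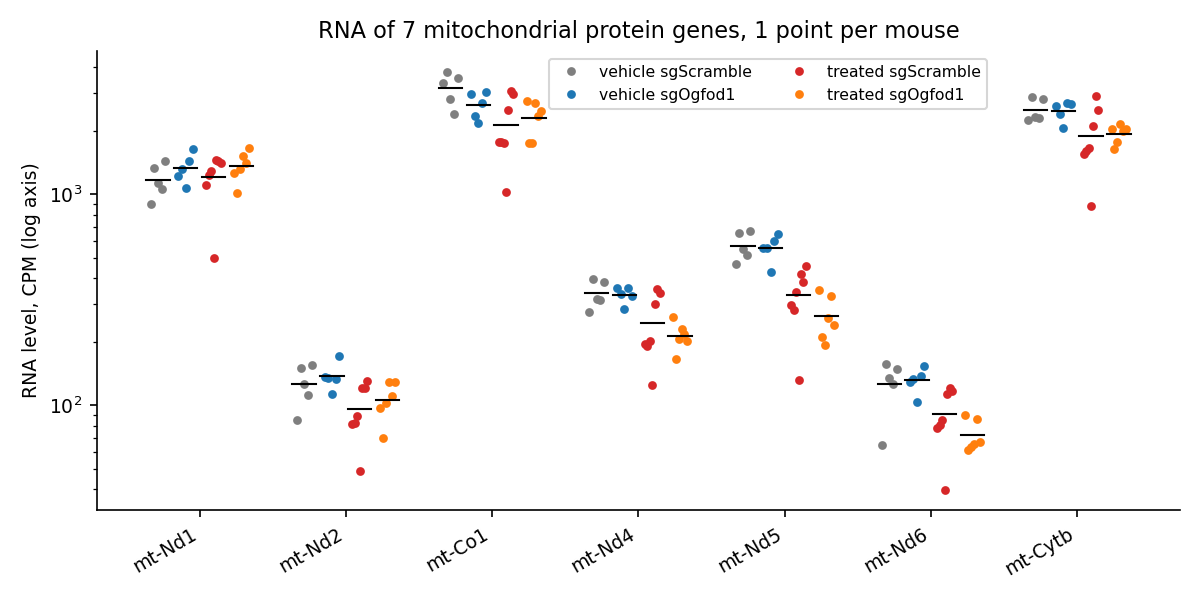
RNA level in CPM (log axis) of the 7 countable mitochondrial protein genes, in the order of the genome, with 1 point per mouse in 4 groups (5, 5, 7 and 6 mice) and a bar at each mean. Treated mice lie below vehicle mice of their genotype for mt-Nd5, from 131 to 457 against 467 to 666 CPM in sgScramble and from 192 to 350.1 against 429.6 to 647 in sgOgfod1 cells, while the groups overlap for mt-Nd1.

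No protein gene passed the test between genotypes. Under vehicle, 0 of 11 protein genes were called by edgeR, 0 had an unadjusted p under 0.05 and 0 were called by DESeq2, beside 0.116% of all genes called and 4.62% at an unadjusted p under 0.05. Under treatment the counts were also 0, 0 and 0, beside 0.391% and 12.9% of all genes. The interaction, which is the treatment effect in sgOgfod1 minus that in sgScramble cells, was called for 0 of 11 genes (0 at an unadjusted p under 0.05, 0 by DESeq2), beside 0% of all genes called and 4.54% at an unadjusted p under 0.05. For mt-Nd5 it was -0.30 ± 0.31, so the larger fall in sgOgfod1 cells was within its error.

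Markers of neutrophils moved with treatment. Summed RNA of 7 neutrophil genes (such as Ly6g and S100a8) was 5875 to 11763 CPM in vehicle sgScramble, 6342 to 15924 in vehicle sgOgfod1, 12882 to 50515 in treated sgScramble and 16749 to 77387 in treated sgOgfod1 mice. Summed RNA of 7 leukemia and progenitor genes was 2881 to 3263, 2897 to 3874, 1910 to 4376 and 2498 to 4090 CPM, and all of these markers were detected. Megakaryocyte and platelet genes summed to 2.80 to 5.38 CPM in vehicle and 10.8 to 22.5 in treated sgScramble mice, and overlapped in sgOgfod1 mice (1.46 to 5.75 and 1.64 to 45.3). Tissue macrophage genes reached 2931 CPM in treated sgScramble mice, whose median was 448. Erythroid genes summed to 1.10 to 2.43 CPM in vehicle sgScramble and 7.60 to 17.1 in vehicle sgOgfod1 mice. The part of these shifts in the mitochondrial results was not tested. In sorted bulk cells a change in the mix of cells and a change of RNA per cell cannot be told apart. In a principal component analysis treated sgScramble replicate 4 and treated sgOgfod1 replicate 3 stood apart. Without both libraries mt-Nd5 changed by -0.64 in sgScramble (adjusted p = 0.0034) and by -1.0 in sgOgfod1 cells (adjusted p = 0.00016), and the counts of called protein genes were again 1 and 3.

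A ratio within a library needs no scaling between libraries. mt-Nd5 counts were 0.462 to 0.523 of mt-Nd1 counts in vehicle sgScramble mice and 0.397 to 0.455 in vehicle sgOgfod1 mice. In treated mice they were 0.229 to 0.327 (sgScramble) and 0.145 to 0.280 (sgOgfod1). All 13 treated mice thus lay below all 10 vehicle mice, including both libraries that stood apart, at 0.263 and 0.147. Within each treatment the sgOgfod1 mean was the lower one, at 0.419 ± 0.0225 against 0.490 ± 0.0217 in vehicle and 0.197 ± 0.0531 against 0.273 ± 0.0295 in treated mice. Footprints showed the same order by treatment, with 1.59 to 1.97 in vehicle and 1.15 to 1.47 in treated sgScramble mice, and 1.87 to 2.15 in vehicle and 1.42 and 1.69 in treated sgOgfod1 mice. By genotype their order was the reverse of that in RNA. The sgOgfod1 mean was the higher one, at 2.05 ± 0.161 against 1.73 ± 0.210 in vehicle and 1.56 ± 0.194 against 1.29 ± 0.135 in treated mice. The pair was chosen after its values were seen, so these ratios are a description with no test.

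**Figure D3:**
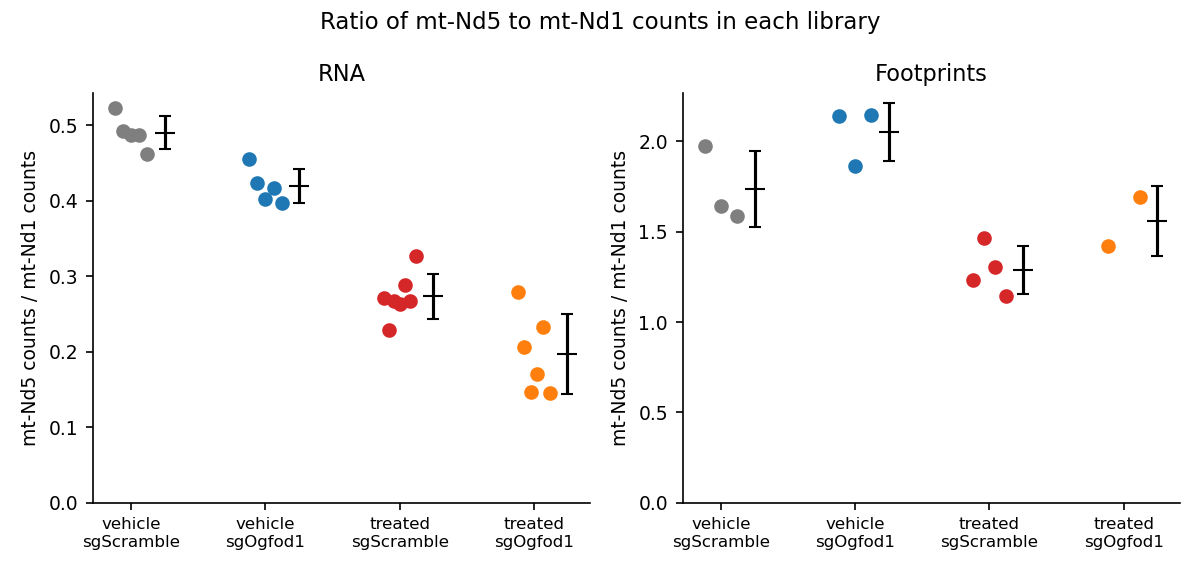
Ratio of mt-Nd5 counts to mt-Nd1 counts in each RNA library (left) and footprint library (right), with the mean and SD of each group beside the points. RNA ratios run from 0.397 to 0.523 in the 10 vehicle mice and from 0.145 to 0.327 in the 13 treated mice, and footprint ratios of treated mice lie below those of vehicle mice of the same genotype.

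Among the counts of the 7 countable genes, mt-Nd1 took 14.5% ± 1.50 in vehicle and 20.4% ± 2.79 in treated sgScramble mice, and 17.5% ± 1.36 and 21.8% ± 2.30 in sgOgfod1 mice. mt-Nd5 took 7.10% ± 0.489 and 5.53% ± 0.658 in sgScramble, and 7.30% ± 0.356 and 4.20% ± 0.728 in sgOgfod1 mice. The share of mt-Cytb was nearly level, at 31.4% in vehicle and 31.4% in treated sgScramble mice, and at 32.6% and 31.2% in sgOgfod1 mice. Shares of a whole move together, so they show unequal change and not which gene changed. All 37 genes took 0.227% to 1.04% of RNA counts, with the lowest in treated sgScramble replicate 4.

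Footprints gave another pattern. In sgScramble cells treatment moved no mitochondrial protein gene past the test, and in sgOgfod1 cells 4 fell: mt-Cytb, mt-Co1, mt-Nd5 and mt-Co3. mt-Cytb stood at 194, 332 and 233 CPM in vehicle sgOgfod1 mice and at 131 and 96.3 CPM in treated ones, a log2 fold change of -1.16 ± 0.25 (adjusted p = 0.015). mt-Co1 stood at 432, 736 and 554 against 363 and 260.4 CPM (-0.88 ± 0.21, adjusted p = 0.023), and its count may include reads of the nuclear copy. mt-Nd5 stood at 138, 302 and 179 against 102 and 74.2 CPM (-1.22 ± 0.30, adjusted p = 0.031). For all 3 both treated mice lay below the 3 vehicle mice. The share of all genes with such a separation is not given. These genes were picked by their call, so the separation is no further support.

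mt-Co3 stood at 183, 341 and 239.9 against 158 and 124 CPM (-0.85 ± 0.24, adjusted p = 0.046), again without overlap, and its count may include reads of the nuclear copy. The 9 other protein genes had log2 fold changes from -1.33 (mt-Atp8) to -0.64 (mt-Nd6) with adjusted p from 0.057 to 0.20. All 13 were negative, with a median of -0.93 beside -0.014 over all genes. All 13 had an unadjusted p under 0.05, as did 23.2% of all genes. The 13 genes were measured in the same mice and are not independent observations. Of all 18290 genes 3.56% were called lower and 8.22% in either direction. The highest vehicle value in each of these 4 genes was replicate 4, whose 13 protein genes summed to 3339 CPM beside 1734 and 2223 in its group.

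These calls rested on few mice. Without treated sgOgfod1 replicate 5 the count was 0, without vehicle sgOgfod1 replicate 3 it was 10, and with a term for library numbers from 17 up, which both treated sgOgfod1 footprint libraries carry, it was 0 with log2 fold changes of -1.23 for mt-Cytb and -0.84 for mt-Co1. DESeq2 called 11. The labels give library numbers but do not say whether they mark a batch. In both assays vehicle libraries were numbered 10 or lower and treated ones 11 or higher. Library number and treatment therefore cannot be told apart. The term from 17 up divides treated libraries alone and does not adjust for this.

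In sgScramble cells 0 of 13 protein genes were called in footprints by edgeR, with 0 at an unadjusted p under 0.05 and 0 by DESeq2, beside 15.6% of all genes called and 30.7% at an unadjusted p under 0.05. Log2 fold changes ran from -0.16 (mt-Nd5) to 0.25 (mt-Nd1). mt-Nd5 stood at 145, 141 and 135 CPM in vehicle mice and at 107, 140.0, 146 and 108 CPM in treated mice, so its RNA was lower after treatment while its footprints overlapped. The difference between the assays had an adjusted p of 0.16 in the test of translation efficiency given further on. The 95% interval for mt-Co1 footprints was -0.52 to 0.28 and that for mt-Cytb -0.57 to 0.34.

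**Figure D4:**
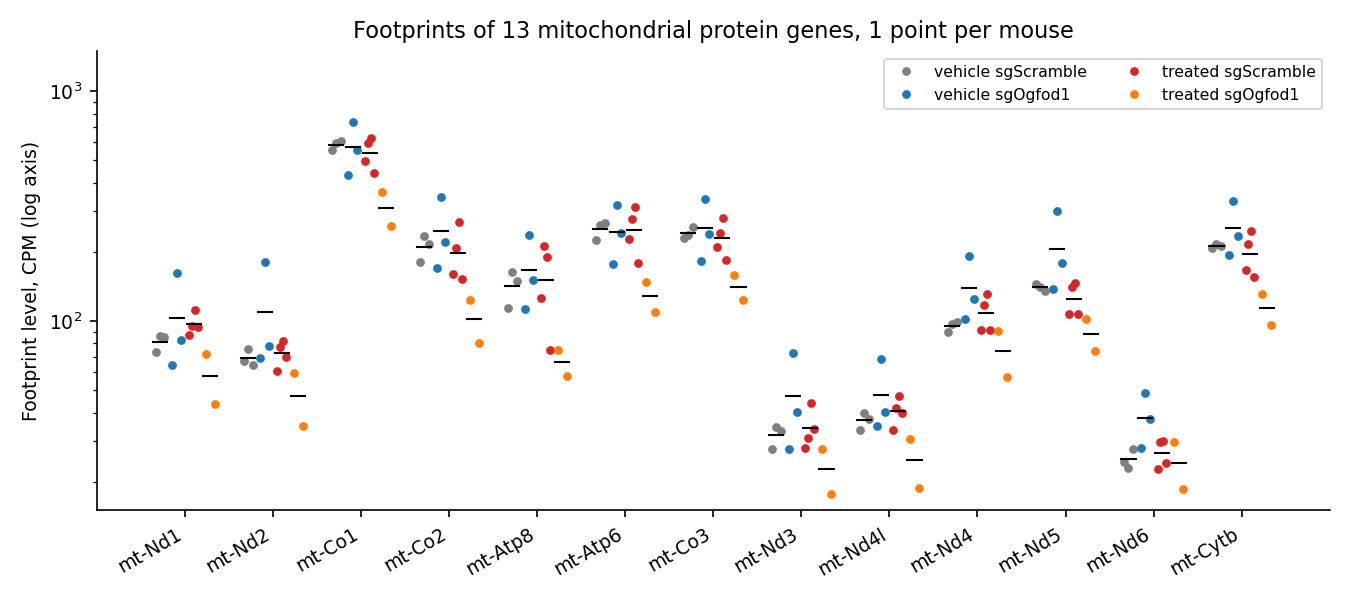
Footprint level in CPM (log axis) of the 13 mitochondrial protein genes in the order of the genome, with 1 point per mouse in 4 groups (3, 3, 4 and 2 mice) and a bar at each mean. The 2 treated sgOgfod1 mice have the lowest group mean in all 13 genes, and 1 vehicle sgOgfod1 mouse, replicate 4, is the highest of its group throughout.

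By complex, summed footprints of complex IV (3 genes) were 1036 ± 62.7 CPM in vehicle sgScramble, 1075 ± 324 in vehicle sgOgfod1, 966 ± 178 in treated sgScramble and 555 ± 128 in treated sgOgfod1 mice. Those of complex I (7 genes) were 480.2 ± 19.0, 691 ± 296, 504 ± 72.8 and 339 ± 103 CPM. Those of complex V (2 genes) were 393 ± 47.4, 413 ± 135, 400.4 ± 118 and 195 ± 39.0 CPM. In each complex the treated sgOgfod1 mice had the lowest mean. Summed over 13 genes, treated sgOgfod1 mice had 1410.3 and 994 CPM, and every other footprint library had 1646 to 3339.

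Between genotypes under treatment 0 of 13 protein genes were called in footprints by edgeR, with 7 at an unadjusted p under 0.05 and 5 called by DESeq2, beside 1.58% of all genes called and 15.8% at an unadjusted p under 0.05. All 13 were lower in sgOgfod1 cells, with a median log2 fold change of -0.71. The median over all genes is not given for the genotype contrasts. Medians of the nuclear lists described further on ran from 0.045 to 0.21 under treatment. mt-Co1 had the smallest adjusted p, 0.079, at 497, 595, 623 and 439 against 363 and 260.4 CPM. The count was 6 without vehicle sgOgfod1 replicate 4, a mouse outside the contrast that enters through the shared spread. Under vehicle 0 of 13 were called (2 at an unadjusted p under 0.05, 0 by DESeq2). Over all genes 1.81% were called there, and 17.1% had an unadjusted p under 0.05. Of the 13, 11 were positive with a median of 0.33, where medians of the nuclear lists ran from -0.15 to 0.20.

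The interaction in footprints was called for 0 of 13 by edgeR and 0 by DESeq2, beside 0.0656% of all genes. All 13 had a negative sign, with a median of -1.06, and all 13 had an unadjusted p under 0.05, as did 9.29% of all genes. These genes were measured in the same mice and are not independent observations. The median over all genes is not given for this contrast. Medians of the nuclear lists described further on ran from -0.20 to 0.13. For mt-Cytb the interaction was -1.04 ± 0.31 (adjusted p = 0.35). A treatment effect on mitochondrial footprints that differs by genotype was therefore not detected after adjustment over all genes. Neutrophil markers in footprints summed to 4452 to 4983 CPM in vehicle sgScramble, 2874 to 4602 in vehicle sgOgfod1, 6992 to 16083 in treated sgScramble and 6088 to 15636 in treated sgOgfod1 mice, and their part in these results was not tested.

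**Figure D5:**
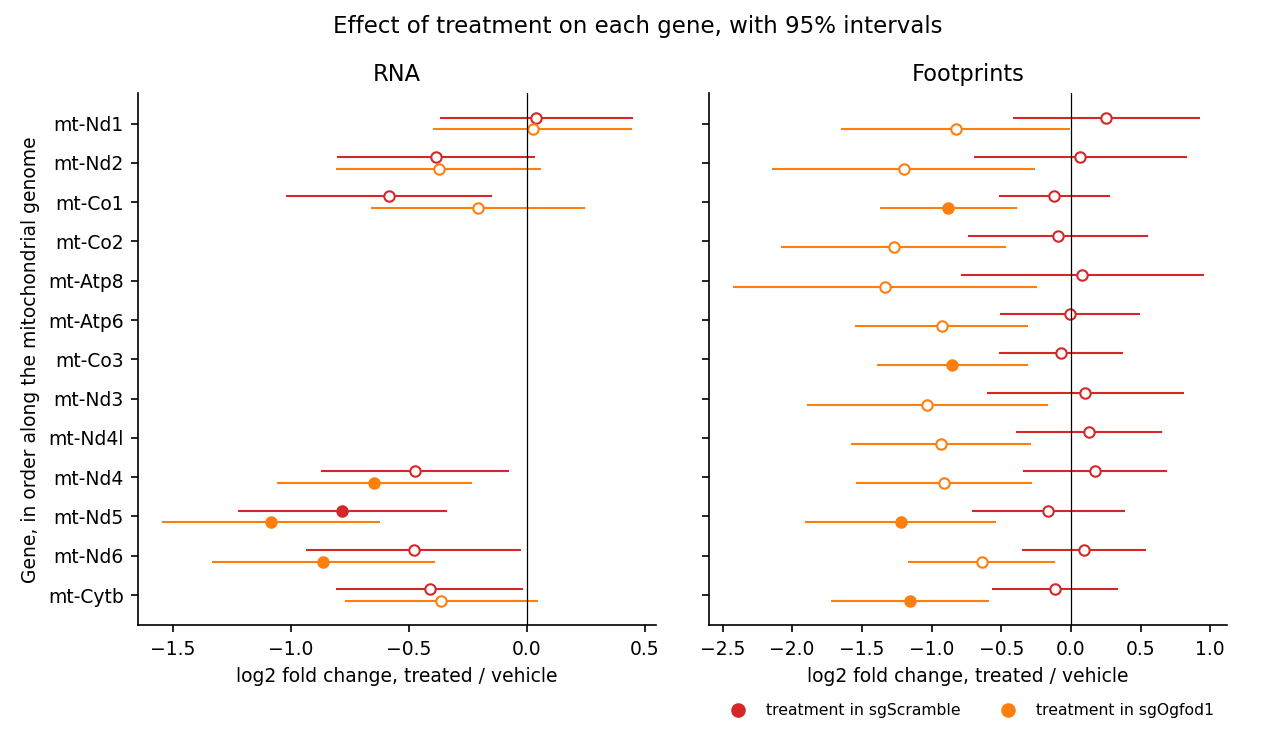
Log2 fold change of treated over vehicle mice in sgScramble (red) and sgOgfod1 cells (orange) for RNA of 7 genes (left) and footprints of 13 genes (right), with 95% intervals. Filled points have an adjusted p under 0.05: mt-Nd5 in both genotypes and mt-Nd4 and mt-Nd6 in sgOgfod1 cells for RNA, and mt-Co1, mt-Co3, mt-Nd5 and mt-Cytb in sgOgfod1 cells for footprints.

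Footprints relative to RNA, called translation efficiency, were tested in 1 model over both assays. For the 6 genes with near-empty RNA counts this value has no meaning, and counts are given for the 7 countable genes alone, of which 0 were called in any contrast. In sgScramble cells all 7 had a positive value after treatment, 6 with an unadjusted p under 0.05, beside 0.93% of all genes called and 11.2% at an unadjusted p under 0.05. This 0 depended on the processing: 6 of 17 alternatives called 1 to 6 of the 7, with 6 when no filter on low counts was used, 2 among protein-coding genes alone and 3 without treated sgScramble replicate 5. mt-Nd4 had the smallest adjusted p, 0.071, at 0.95 ± 0.23. The footprint counts of mt-Nd4 and mt-Co1 may include reads of their nuclear copies. The ratio of footprint to RNA CPM of mt-Co1 was 0.145 to 0.211 in vehicle and 0.176 to 0.358 in treated sgScramble mice, so these groups overlapped. In sgOgfod1 cells it was 0.181 to 0.274 in vehicle and 0.111 and 0.135 in treated mice.

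In sgOgfod1 cells 0 of 7 were called for translation efficiency after treatment and 3 had an unadjusted p under 0.05, beside 0.0839% and 5.32% of all genes. Between genotypes under vehicle these counts were 0 and 3 of 7, beside 0.0594% and 7.2% of all genes, and under treatment 0 and 4 of 7, beside 0.0489% and 6.75%. For the interaction they were 0 and 6 of 7, beside 0% and 5.81% of all genes, with -1.39 ± 0.31 for mt-Co1 and -1.28 ± 0.29 for mt-Cytb, both at an adjusted p of 0.40. With no filter on low counts these 4 counts of 0 became 4, 4, 4 and 6, and the count between genotypes under treatment was 2 among protein-coding genes alone and 1 without treated sgScramble replicate 5. All of these counts are from edgeR, and DESeq2 was not run on this model.

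The rRNAs dominated the mitochondrial footprint reads. All 37 genes took 7.28% to 11.0% of footprint counts, while the 13 protein genes took 0.102% to 0.354%. Such reads are pieces of the ribosome itself and not of translated mRNA. mt-Rnr1, the rRNA of the small subunit at chrM:70-1024, stood at 25227, 24836 and 26793 CPM in vehicle sgScramble and 24215, 22106 and 20778 in vehicle sgOgfod1 mice. It stood at 27382, 38961, 32247 and 25340.0 CPM in treated sgScramble and 15605 and 15308 in treated sgOgfod1 mice. Both treated sgOgfod1 mice were the lowest of all 12.

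mt-Rnr1 footprints were lower in sgOgfod1 than in sgScramble cells under treatment (log2 fold change -1.0 ± 0.15, adjusted p = 0.0082) and fell with treatment in sgOgfod1 cells (-0.53 ± 0.15, adjusted p = 0.043). The first call was kept in 16 of 18 alternatives, with an adjusted p of 0.056 with the library-number term. The second held in 6 of 18. For mt-Rnr2, the rRNA of the large subunit at chrM:1094-2675, treated sgScramble mice stood at 64911, 83223, 84480.0 and 86034 CPM against 58355, 55370.0 and 61114 in vehicle mice (0.45 ± 0.16, adjusted p = 0.072, no overlap).

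In RNA the rRNAs did not pass in any contrast by edgeR, with 0 of 2 at an unadjusted p under 0.05 in each, where 26.8% of all genes had one with treatment in sgScramble and 25.8% in sgOgfod1 cells. mt-Rnr2 averaged 495 ± 104 CPM in vehicle and 393 ± 175 in treated sgScramble mice, and 382 ± 91.8 and 435 ± 61.3 in sgOgfod1 mice. The ratio of its footprints to its RNA rose with treatment in sgScramble cells (1.10 ± 0.17 on the log2 scale, adjusted p = 0.0054), from 95.5 to 120.1 in vehicle to 189 to 277 in treated mice. That ratio sets ribosome pieces against the few rRNA reads of the RNA libraries and is no measure of translation. The call was lost without the mouse block (adjusted p = 0.12) and without vehicle sgOgfod1 replicate 5 (0.067). Reads of small nuclear RNAs, which are not translated, took 5.12% to 9.03% of the footprint reads of treated sgScramble mice and 1.40% to 3.67% in the other 3 groups, and their part in the rRNA and tRNA values was not tested.

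tRNAs were sparse in RNA libraries: 17 of 22 passed the filter, and mt-Ty led with 27.4 CPM, ahead of mt-Tq (16.1), mt-Tl1 (8.97) and mt-Tm (7.39). mt-Tk had 0 counts in all 23 RNA libraries and 2321 footprint counts in total. It lies at chrM:7700-7764, between mt-Co2 and mt-Atp8, which had near-empty RNA counts too. Its RNA count is likewise not read here as a measure of its transcript. Single tRNAs that passed the test were mt-Ts1 and mt-Te, both on the minus strand, printed with the anticodon in capitals.
mt-Ts1, chrM:6870-6938, minus strand: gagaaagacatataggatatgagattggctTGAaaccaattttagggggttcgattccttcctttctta
mt-Te, chrM:14071-14139, minus strand: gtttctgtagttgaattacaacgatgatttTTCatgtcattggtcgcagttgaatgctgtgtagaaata

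mt-Te, the glutamate tRNA beside mt-Nd6, fell with treatment in sgOgfod1 cells. It stood at 3.28, 3.72, 2.21, 3.72 and 3.44 CPM in vehicle mice and at 0.972, 1.53 and 2.02 CPM (lowest, median, highest of 6) in treated mice, with no overlap (-1.13 ± 0.31, adjusted p = 0.023). mt-Ts1, a serine tRNA that overlaps the end of mt-Co1 on the other strand, fell in sgScramble cells from 0.566 ± 0.269 to 0.207 ± 0.0734 CPM (-1.43 ± 0.47, adjusted p = 0.044), with overlapping groups. Without strand, reads of mt-Co1 cannot be told from those of mt-Ts1. The mt-Te call held in 27 of 31 alternatives and the mt-Ts1 call in 16 of 31. With treatment 1 of the 17 tested tRNAs was called in each genotype, beside 12.9% of all genes in sgScramble and 9.87% in sgOgfod1 cells. Of the 17 tested tRNAs 17 were negative in sgScramble (median -0.52) and 13 in sgOgfod1 cells (median -0.26).

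In footprints all 22 tRNAs passed the filter. mt-Tv led in level, at 89.5 to 494 CPM over 12 libraries, and mt-Tl1 followed at 56.9 to 172 CPM. With treatment 21 of 22 were positive in sgScramble cells (median 0.86) and 9 in sgOgfod1 cells (median -0.066), with 0 called in either (4 and 0 at an unadjusted p under 0.05, beside 30.7% and 23.2% of all genes). Between genotypes under treatment all 22 were lower in sgOgfod1 cells (median -1.35), with no median over all genes set beside it. Of the 22, 0 were called and 7 had an unadjusted p under 0.05, beside 15.8% of all genes. mt-Tl1 stood at 123, 162, 155 and 138 CPM in treated sgScramble and at 67.7 and 78.0 in treated sgOgfod1 mice (-0.99 ± 0.41, adjusted p = 0.29). Relative to RNA, mt-Ts1 footprints rose with treatment in sgScramble cells (2.56 ± 0.42, adjusted p = 0.014), a call held in 12 of 16 alternatives and again no measure of translation. It was 1 of 22 tRNAs called there, beside 0.93% of all genes. The tRNAs for leucine, isoleucine and valine were not called in any contrast that tested them.

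Nuclear genes that serve the mitochondrial genome were set beside its own. Of 16 genes for transcription and maintenance of the DNA, 0 were called in RNA in sgScramble cells, and in sgOgfod1 cells Polrmt, the mitochondrial RNA polymerase, fell (-0.60 ± 0.19, adjusted p = 0.049). In footprints Polrmt fell in sgScramble cells (-0.69 ± 0.16, adjusted p = 0.0094), and in sgOgfod1 cells Ssbp1, which binds single-stranded mitochondrial DNA, rose (0.62 ± 0.15, adjusted p = 0.019). Each was the only gene called of the 16 in its contrast, which is 6.25% of the list beside 9.87%, 15.6% and 8.22% of all genes.

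Of 27 genes for processing and stability of mitochondrial RNA, 3 were called in RNA in sgScramble cells and 3 in sgOgfod1 cells, 11.1% each, near the 12.9% and 9.87% of all genes. In sgScramble cells Hsd17b10, a subunit of the RNase P that cuts tRNAs free, rose (0.87 ± 0.23, adjusted p = 0.015), as did Tbrg4, an RNA-binding protein (0.65 ± 0.21, 0.046), and Fastkd5, of the same family, fell (-0.37 ± 0.12, 0.047). In sgOgfod1 cells Lrpprc, which keeps mitochondrial mRNAs stable, fell (-0.69 ± 0.17, adjusted p = 0.011), Fastkd1 fell (-0.47 ± 0.15, 0.042), and Trmt10c, another RNase P subunit, rose (0.34 ± 0.10, 0.041).

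In footprints 3 of the 27 were called in sgScramble cells, 11.1% beside 15.6% of all genes. Slirp, the partner of Lrpprc, rose (0.56 ± 0.13, adjusted p = 0.010), Trnt1, which adds the CCA end to tRNAs, rose (0.38 ± 0.12, 0.039), and Nsun4, an rRNA methyltransferase, fell (-0.74 ± 0.23, 0.039). Rexo2, an oligoribonuclease, was higher in sgOgfod1 than in sgScramble cells under treatment (0.67 ± 0.14, adjusted p = 0.027), 1 of 27 or 3.7% beside 1.58% of all genes.

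Of 14 mitochondrial translation factors 1 was called, the release factor Mtrf1l in RNA of sgScramble cells (-0.52 ± 0.14, adjusted p = 0.014), or 7.14% of the list beside 12.9% of all genes. None of Lars2, Iars2 and Vars2, which load leucine, isoleucine and valine onto mitochondrial tRNAs, was called in any contrast of RNA, footprints or translation efficiency. The medians of the 4 lists lay between -0.16 and 0.021 on the log2 scale in both treatment contrasts in RNA, beside -0.47 (sgScramble) and -0.37 (sgOgfod1) for the 7 countable mitochondrial protein genes.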

How the data were processed

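The authors deposited raw counts of reads per Ensembl gene for RNA and footprints. The tools named in the submitters' processing notes are featureCounts, STAR, Bowtie2, cutadapt and SAMtools, and the builds are mm10 and GRCm38. Per the labels' protocols, RNA came from Smart-seq2 without molecular identifiers or strand, and footprints from RNase I digestion in cycloheximide, which acts on cytosolic ribosomes. Genes were named through GENCODE M21. Each library came from 1 mouse, and no replicate pair agreed within sampling noise (smallest chi-square per degree of freedom 17.2 in RNA and 6.20 in footprints).

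Counts were tested with edgeR 4.0.16 in R 4.3.3 (TMM scaling, filterByExpr, robust quasi-likelihood test), with all 4 groups of an assay in 1 fit, so that they share 1 estimate of the spread (19 residual degrees of freedom in RNA, 8 in footprints). Translation efficiency was the assay-by-group term of a model over both assays with the mouse as a block, in the 12 mice with both. P-values were adjusted by the Benjamini-Hochberg method over all genes tested, and an adjusted p under 0.05 was a call. CPM used TMM-scaled library sizes. The scripts were tested on simulated data. Sequences were compared with Biopython 1.88.

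All protein genes and rRNAs could be named, tRNAs only where called or among the 4 highest of an assay, and of each nuclear list and contrast up to 4 genes with the smallest p. Sequences of mt-Tl2 and mt-Ti are shown for their amino acid, and mt-Tk is named for its 0 RNA counts. The genes and lists were chosen with earlier results of these data known. Alternatives were other scalings, no filter, protein-coding genes alone, DESeq2 1.42.0, the replicate number as a block, a library-number term, only mice with footprints, and leaving out each replicate. That without 2 RNA libraries was chosen after seeing the data.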

Additional observations from a re-analysis of the deposited data

Results flagged for a closer look

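In groups of 4 to 10 mice, 79 groups of values of these genes were checked for a mouse far from the others, and 3 had one, where chance gives about 1 in 20. mt-Nd1 RNA in treated sgScramble replicate 4 was 496.81 CPM, with the other 6 mice at 1101 to 1457; this library also stood apart over all genes and had the lowest mitochondrial share of RNA counts. mt-Tm RNA in vehicle sgScramble replicate 3 was 5.3502 CPM, with the other 4 mice at 8.24 to 8.91. mt-Rnr2 footprints in treated sgScramble replicate 1 were 64911 CPM, with the other 3 mice at 83223 to 86034.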

How the results depend on the processing

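For single genes, 194 of 4828 alternative values changed sign, none of them called in either fit, so 0 calls reversed. Of 340 alternative counts of called protein genes 37 moved beyond a set margin. Smaller moves, such as from 3 to 2 or from 3 to 4, are not among the 37. RNA in sgScramble cells (treatment, 1 called) gave 2 among protein-coding genes alone, 2 by DESeq2, 6 over mice with a footprint library and 0 to 4 with 1 mouse left out. RNA in sgOgfod1 cells (3 called) gave 2 to 4 with 1 mouse left out. Footprints in sgOgfod1 cells (4 called) gave 8 without a filter, 11 by DESeq2, 0 with the library-number term and 0 to 10 with 1 mouse left out. Without a filter, counts of 0 became 3 (genotype under vehicle), 7 (genotype under treatment) and 7 (interaction) in footprints, and 6, 4, 4, 6 and 6 in translation efficiency (treatment in sgScramble, treatment in sgOgfod1, genotype under vehicle, genotype under treatment, interaction). Footprints by genotype under treatment gave 1 among protein-coding genes alone, 5 by DESeq2 and 0 to 6 with 1 mouse left out. Translation efficiency gave 1 with DESeq2's size factors, 2 among protein-coding genes and 0 to 3 with 1 mouse left out (treatment in sgScramble), and 4 among protein-coding genes and 0 to 1 with 1 mouse left out (genotype under treatment). The translation efficiency counts here are over 13 genes, 6 of them with near-empty RNA counts. The causes were not tested. Where a left-out mouse leaves 1 treated sgOgfod1 footprint library, that library is assumed to vary like the other groups. With 2 such libraries and RNA counts near 0 for 6 genes, depth and number limit both assays.

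The replicate block gave 4 called genes in RNA of sgScramble cells (treatment), 11 in footprints of sgOgfod1 cells (treatment), 6 in footprints by genotype under treatment and 5 in the footprint interaction, and it took the mt-Rnr1 footprint call by genotype under treatment to an adjusted p of 0.057. The same number in different groups marks different mice. Deviations of libraries with the same number correlated at -0.31 to 0.62 over 31 RNA pairs (5 above 0.1). Over 11 footprint pairs they correlated at -0.091 to 0.072 (0 above 0.1). The highest RNA value was between replicate 3 of vehicle and of treated sgScramble mice. Pairs with different numbers were not set beside these, so the correlations cannot settle whether the numbers mark a block.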
